A study of Mus musculus with 15 samples.

Results

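The genes that carry glucose through glycolysis, the pentose phosphate pathway and the TCA cycle were followed in mouse CD8+ T cells before and after stimulation with antigen. They were chosen as a list of 46 gene symbols. Of these, 45 were among the 17493 gene rows of the count tables and 44 were among the 10831 genes with enough counts to test. Pkm2 had no row of its own, since it is an older symbol for a product of Pkm. Slc16a3, the lactate exporter MCT4, had 0 to 46 counts per library and was not tested.

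All 15 libraries came from CD8+ OT-I T lymphocytes of spleen and lymph nodes of female OT-1 mice, a C57BL/6 strain whose transgene encodes a T cell receptor for an ovalbumin peptide on MHC class I. Age was not given in the labels. The 5 groups of 3 libraries were untreated cells at 0 h, and cells at 8 h or 22 h with one of 2 stimuli. Immunofilaments (IF) were filaments carrying SIITFEKL peptide on MHC together with interleukin-2, used at 5 ng/ml, and the dendritic cells (DC) were 20000 Flt3 ligand dendritic cells pulsed with the same peptide, per well of 50000 T cells. The DC wells therefore held other living cells and no filament-bound interleukin-2. Cells of every group were sorted as viable, CD8+ and CD103- before RNA extraction. Replicates are numbered 1 to 3 behind the abbreviation "Don", which the labels do not spell out. Nothing says that the 3 libraries of a group came from separate mice, so p-values measure the spread between these libraries, which may in part be technical.

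Glycolysis splits glucose into pyruvate in preparatory steps, which spend ATP, and payoff steps, which return ATP and NADH. Lactate dehydrogenase turns pyruvate into lactate and restores NAD+, while the pyruvate dehydrogenase complex sends it into the TCA cycle in mitochondria. The pentose phosphate pathway branches from glucose 6-phosphate and supplies NADPH and ribose for nucleotides. Activated CD8+ T cells are known for raising glucose uptake and lactate output as they leave quiescence, and Myc, Hif1a and Irf4 are known regulators of that switch.

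Library totals ran from 2892874 counts (IF 8 h replicate 2) to 19806730 (IF 22 h replicate 3), and 1 count corresponded to 0.0510 to 0.332 CPM (normalised read counts, scaled by TMM, the trimmed mean of M values). CEL-seq counts the 3' ends of transcripts, so levels are compared between groups and not between genes. The CD8 marker Cd8a was at 419 to 999 CPM in every library and Cd4 at 0 to 1.5 CPM. The summed level of 7 CD8 T cell markers was lower in every stimulated group, at 8981 CPM on average unstimulated, 4757 (IF) and 4271 (DC) at 8 h, and 5596 (IF) and 4696 (DC) at 22 h. Of these markers, 6, 7, 5 and 5 were called lower in the same order and 0 higher, and the part of this shift in the values below was not tested. IF 22 h replicates 2 and 3 had 0.179% and 0.146% of their counts in mitochondrial ribosomal RNA, against 1.82% to 4.49% in the other 13 libraries. In both of these, 127 of the genes tested were lower by more than 2-fold than in any other library, and 0 of them were among the 44.

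The DC libraries numbered 2 stood apart in these genes at both times. DC 8 h replicate 2 held the highest of the 3 values for 28 of 44 genes (63.6%), against 36.1% of all genes tested. DC 22 h replicate 2 did so for 34 of 44 (77.3%), against 39.2% of all genes. It lay more than 1.5-fold above both other DC 22 h libraries for 14 of 44 genes (31.8%), against 15.02% of all genes, and for 5 of the 6 payoff genes. In IF 22 h, replicate 1, which had the usual share of mitochondrial ribosomal RNA, was the lowest of 3 for 34 of 44 genes, against 4449 of 10831 genes. No cause for these differences was tested, and members' calls that rest on these libraries are given with and without them.

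**Figure D1:**
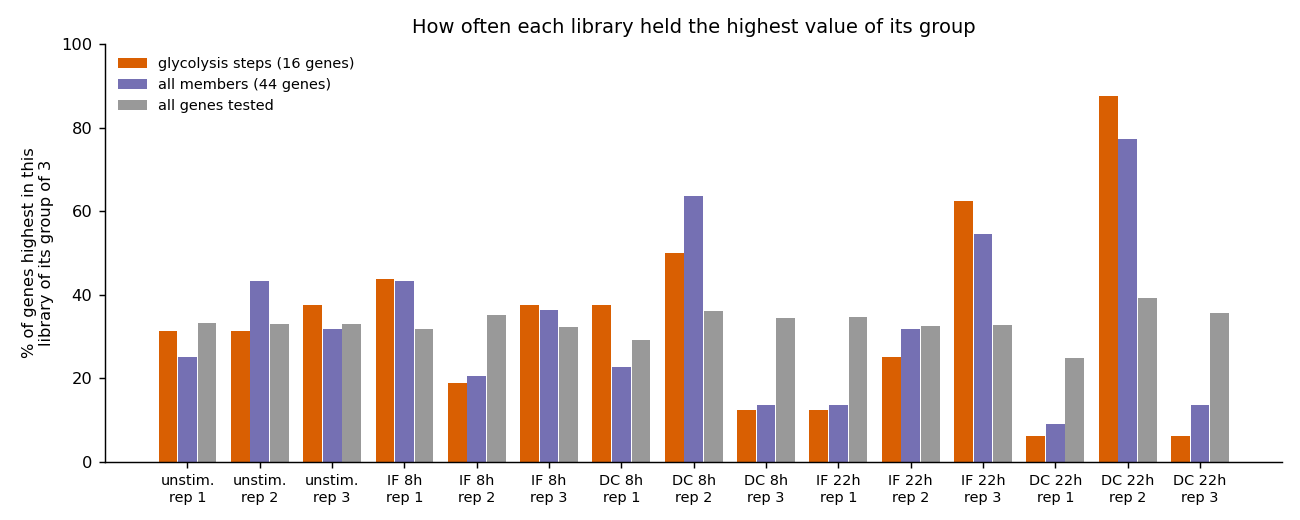
Percent of genes (y axis) for which each of the 15 libraries (x axis) held the highest CPM of its group of 3, for the 16 genes of glycolysis steps, the 44 tested genes and all 10831 genes tested. DC 22 h replicate 2 was highest for 87.5% of the glycolysis genes and DC 8 h replicate 2 for 50.0%, while replicates 1 and 3 of DC 22 h were each highest for 6.25%.

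Few of the genes passed the test in any comparison. Over the 8 comparisons of 2 groups, 7 of 352 tests passed an adjusted p of 0.05 by edgeR's quasi-likelihood test, in 5 genes: Eno3, Pgam1, Pgls, Pdha1 and Taldo1. The other 39 genes passed in none. In the test of any difference among the 5 groups, 1 of 44 genes passed (Eno3), against a background of 11.8% of all genes. DESeq2 called 8 genes in that test, against 20.9% of all genes.

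After 8 h of IF, 2 genes fell and 0 rose, against 7.76% of all genes called (4.72% lower and 3.04% higher). With only the IF 8 h and unstimulated libraries in the fit, Hk2, Ldha and Pgam1 were called higher and Pdha1 and Taldo1 lower. DESeq2 called Aldoc, Gpi1, Idh3b, Ogdh, Pdha1, Pfkm and Taldo1 there, all lower. After 8 h of DC, 0 genes passed the adjusted threshold, against 6.82% of all genes (4.07% lower and 2.75% higher), with 10 (22.7%) at an unadjusted p under 0.05, against 20.9% of all genes. DESeq2 called 4, against 10.9% of all genes. After 22 h of IF, 1 gene rose and 0 fell, against 6.08% of all genes (2.63% higher and 3.44% lower). After 22 h of DC, 2 rose and 1 fell, against 7.76% of all genes (3.41% higher and 4.35% lower). These counts depended on single libraries. At DC 22 h, 7 genes passed without DC 22 h replicate 3 (against 8.81% of all genes), 1 without DC 22 h replicate 2, 2 without DC 22 h replicate 1 or without both DC libraries numbered 2, and 0 without any 1 unstimulated library. At IF 8 h, 1 passed without unstimulated replicate 1 and 0 without any 1 of the other 5 libraries compared, and at DC 8 h 1 passed (Pfkp) without both DC libraries numbered 2. Apart from the 8.81% above, the shares of all genes in the fits with libraries left out are not given here. A general loss of calls is therefore not told apart from a loss in these genes. In the full data, the share of the 44 genes called was no higher than that of all genes in any comparison with unstimulated cells. The median log2 fold change of the 44 genes was -0.09 for both stimuli at 8 h, and at 22 h it was 0.13 for IF and -0.05 for DC. Without IF 22 h replicates 2 and 3 the median for IF at 22 h was -0.12, from 1 library. In the full data and the same order, the medians of all genes were 0.02, 0.04, 0.01 and 0.04. Counting genes whose 3 stimulated values did not overlap the 3 unstimulated ones, 4 of the 44 lay higher and 12 lower at IF 8 h, against 14.2% and 16.4% of all genes. At DC 8 h, 3 lay higher and 10 lower, against 13% and 15.2%. At IF 22 h, 12 lay higher and 6 lower, against 15.7% and 14.7%, and at DC 22 h 3 lay higher and 5 lower, against 12.8% and 14.2%. The typical standard error of a log2 fold change was 0.25 for the 44 genes in each of these, so many changes below 1.5-fold could not be separated from the spread. An absolute log2 fold change under 1 was measured for 41, 40, 41 and 40 of the 44 genes.

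These directions hold on the TMM scale. With library size alone, the median of all genes moved to 0.26, 0.30, 0.22 and 0.37, and 10, 10, 5 and 15 of the 44 genes changed sign. The 4 comparisons share the same unstimulated libraries. In these bulk libraries a change in RNA per cell and a change in the share of cells with that RNA cannot be told apart.

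**Figure D2:**
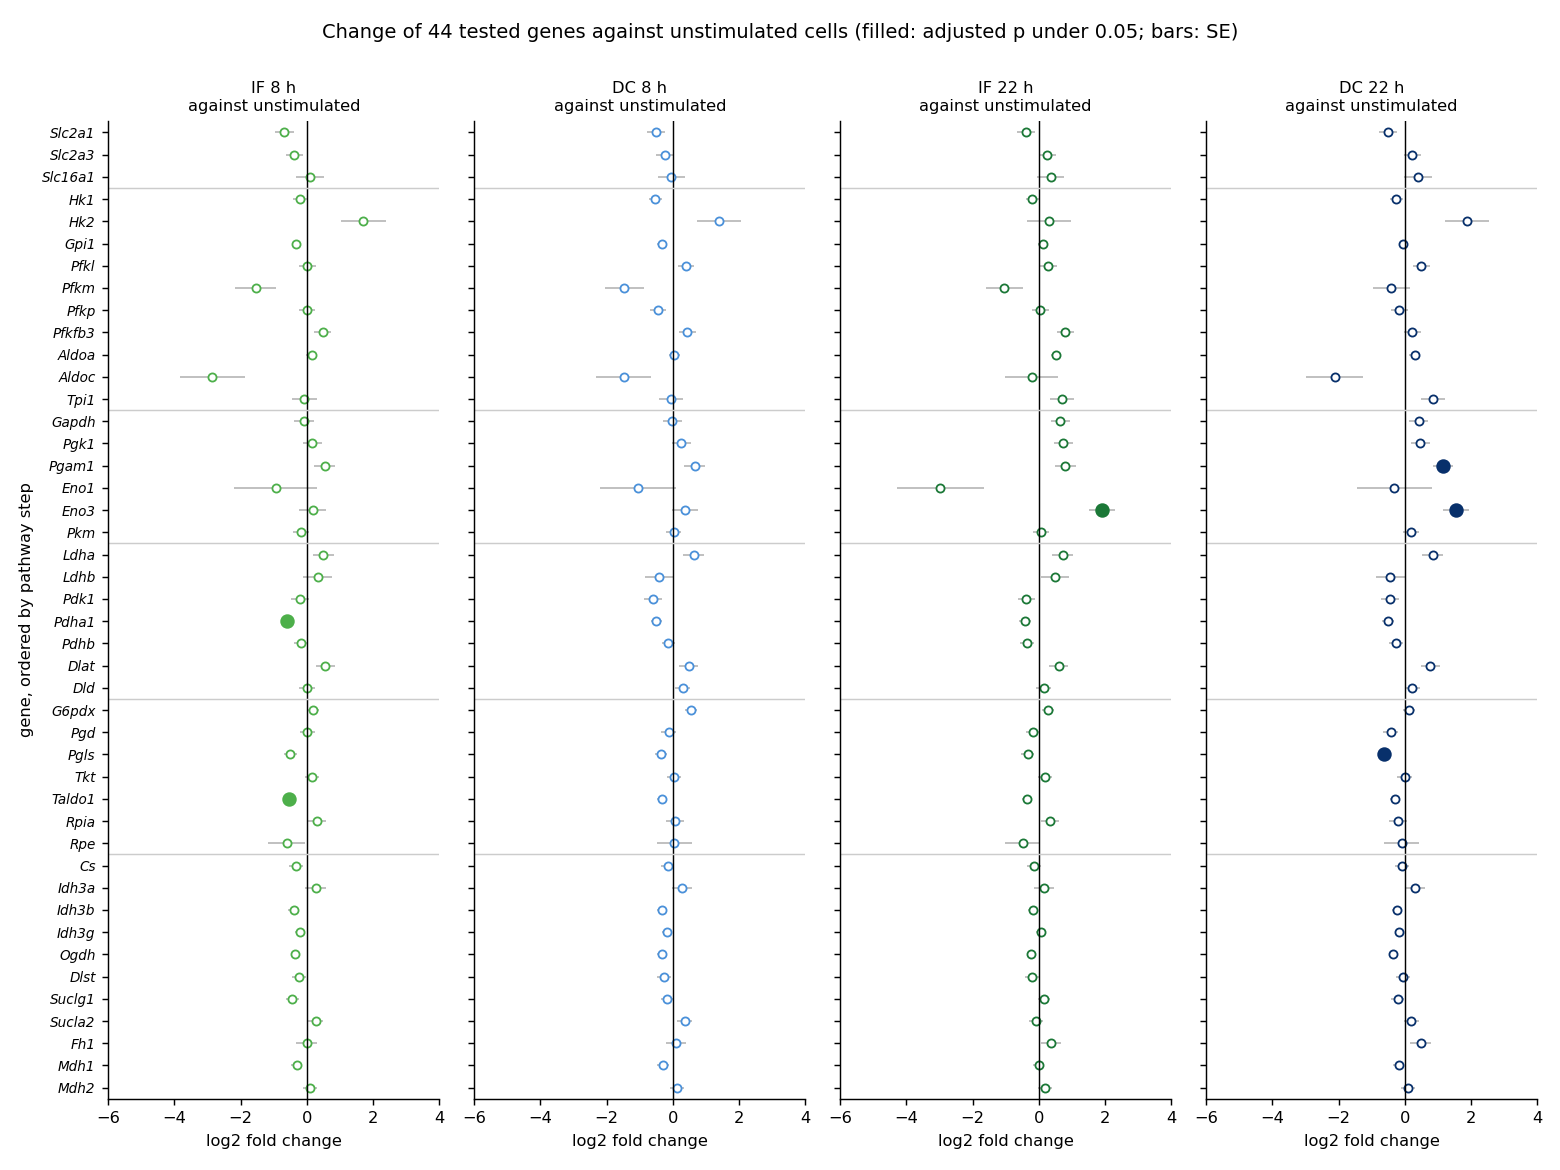
Log2 fold change against unstimulated cells (x axis) of the 44 tested genes (y axis, ordered by pathway step, steps divided by grey lines) in the 4 stimulated groups, with bars of 1 SE and filled points where the adjusted p was under 0.05. Filled points are Pdha1 and Taldo1 at IF 8 h, Eno3 at IF 22 h, and Pgam1, Eno3 and Pgls at DC 22 h. No point is filled at DC 8 h.

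Glucose enters through Slc2a1 (GLUT1) and Slc2a3 (GLUT3), and lactate leaves through Slc16a1 (MCT1). None of the 3 passed in any comparison, by edgeR or DESeq2. Slc2a1 was at 18.2, 18.6 and 14.4 CPM in unstimulated cells and at 13.0, 11.6 and 7.23 CPM at IF 8 h. All 3 IF 8 h values lay below all 3 unstimulated ones, with an adjusted p of 0.158 by edgeR. Slc2a3 was at 29.9 to 41.2 CPM in unstimulated cells and at 41.4 to 45.6 CPM at IF 22 h. Slc16a1 was at 13.2 to 21.2 CPM before stimulation, and at 19.5, 33.5 and 13.6 CPM in DC 22 h replicates 1 to 3.

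The preparatory steps were represented by 10 genes, and 0 passed in any comparison with unstimulated cells in the main edgeR fit. DESeq2 called Gpi1 and Pfkm lower at IF 8 h and DC 8 h, Aldoc lower at IF 8 h, Aldoa and Pfkfb3 higher at IF 22 h, and Hk2 higher at DC 22 h. Hexokinase, which traps glucose as glucose 6-phosphate, has a constitutive form, Hk1, and an inducible form, Hk2. Hk2 was at 4.84, 4.88 and 3.26 CPM in unstimulated cells and at 11.2, 12.6 and 18.8 CPM at IF 8 h, with no overlap. Its log2 fold change was 1.69 ± 0.68 (SE), with an adjusted p of 0.141 by edgeR. Among the alternatives it passed only with these groups alone in the fit (adjusted p 0.0117 by edgeR) and without a low-count filter (adjusted p 0.00409 by edgeR). At IF 22 h it was at 6.07, 4.90 and 5.26 CPM, a log2 fold change of 0.31 against unstimulated. With DC it was at 10.2, 20.2 and 3.96 CPM at 8 h and at 8.54, 36.1 and 3.76 CPM at 22 h. Replicate 2 was the highest and replicate 3 was within the unstimulated range at both times.

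The share of Hk2 in the summed counts of both hexokinase genes was 3.54% to 7.55% in unstimulated libraries. It was 14.7% to 23.6% at IF 8 h and 6.07% to 10.4% at IF 22 h. In DC replicate 2 it was 32.3% at 8 h (exact 95% binomial interval 28.3 to 36.6) and 34.9% at 22 h (31.8 to 38.1). In DC replicate 3 it was 6.22% (4.14 to 8.92) and 5.63% (4.12 to 7.48). These intervals cover counting error only. Hk1 was at 42.4 to 88.7 CPM over all 15 libraries.

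Among the other preparatory genes, Aldoa, the main aldolase, was at 320 to 352 CPM in unstimulated cells and at 457, 509 and 496 CPM at IF 22 h. The IF 22 h values did not overlap the unstimulated ones (log2 fold change 0.52 ± 0.16, adjusted p 0.0716 by edgeR). Tpi1, triose phosphate isomerase, was at 69.9 to 93.9 CPM unstimulated and at 110, 126 and 170 CPM at IF 22 h. With DC at 22 h it was at 120, 267 and 68.5 CPM. Pfkm, the muscle-type phosphofructokinase, was at 8.86 to 12.2 CPM in unstimulated cells and at 3.23 to 4.26 CPM at DC 8 h. It had 0 counts in IF 8 h replicate 2, where 3 counts would be 0.995 CPM. Pfkp, the platelet-type form, was at 46.2, 110 and 48.6 CPM at DC 22 h against 73.7 to 80.4 CPM unstimulated. Replicate 2 lay above the unstimulated range and the other libraries below it. Without DC 22 h replicate 2, Pfkp was called lower at DC 22 h.

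The payoff steps held the clearest change. Eno3, the muscle-type enolase, which makes phosphoenolpyruvate, lies at chr11:70657202-70662513 on the plus strand (GRCm38). It was at 8.81, 10.1 and 10.9 CPM in unstimulated cells, at 13.0, 10.3 and 9.91 CPM at IF 8 h, and at 14.6, 13.3 and 10.1 CPM at DC 8 h. At IF 22 h it was at 27.1, 39.9 and 43.9 CPM, and at DC 22 h at 20.7, 52.8 and 13.6 CPM. All 22 h values lay above all unstimulated ones, whereas the 8 h values overlapped them.

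Eno3 rose at IF 22 h by 1.90 ± 0.39 (SE) on the log2 scale, with an adjusted p of 0.00753 by edgeR, and at DC 22 h by 1.54 ± 0.39, with an adjusted p of 0.0210. From IF 8 h to IF 22 h it rose by 1.73 ± 0.39 (adjusted p 0.0437 by edgeR), a call that was lost without any 1 of the IF 8 h libraries and without IF 22 h replicate 2 or 3 (adjusted p 0.109 to 0.193). Without the IF 22 h libraries of low mitochondrial ribosomal RNA, its change at IF 22 h was 1.45 with an adjusted p of 0.275, from 1 remaining library. Without both DC libraries numbered 2, its change at DC 22 h was 0.81 with an adjusted p of 0.112, and the call was also lost without any 1 unstimulated library (adjusted p 0.0595 to 0.0841). No 60-base word of the last 500 bases of its longest coding transcript occurs in another gene of GENCODE vM21. Reads of that end are therefore not easily mistaken for those of another enolase. Its other transcript ends and inexact matches were not examined.

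Eno1, the enolase of most tissues, was counted at 0 to 1.66 CPM. Of the 60-base words in the last 500 bases of Eno1, 70.1% are also found in Eno1b, which had no row in the tables. Its counts are therefore uncertain, and the Eno3 share of counted enolase, 84.5% to 100%, is not a share of all enolase RNA.

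Pgam1, phosphoglycerate mutase, lies at chr19:41911923-41918660 on the plus strand. It was at 219.6, 216 and 233 CPM in unstimulated cells, at 395, 244 and 328 CPM at IF 8 h, and at 296, 519.8 and 239 CPM at DC 8 h. At 22 h it was at 345, 356 and 465 CPM with IF and at 389, 783 and 315 CPM with DC. All 12 stimulated libraries lay above all 3 unstimulated ones. It rose at DC 22 h by 1.16 ± 0.31 (SE) on the log2 scale (adjusted p 0.0319 by edgeR). The other 3 groups had values of 0.54, 0.66 and 0.80 that did not pass, with adjusted p of 0.327, 0.239 and 0.146 by edgeR. Without both DC libraries numbered 2 the change at DC 22 h was 0.68 with an adjusted p of 0.0414, without DC 22 h replicate 2 alone the adjusted p was 0.169, and without any 1 unstimulated library it was 0.0908 to 0.105.

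Pgk1, phosphoglycerate kinase, was at 181 to 233 CPM in unstimulated cells and at 277, 377 and 390 CPM at IF 22 h, with no overlap. Its log2 fold change was 0.74 ± 0.29 (SE) and its adjusted p was 0.147 by edgeR. At DC 22 h it was at 256, 443 and 167 CPM. Gapdh was at 78.7 to 82.2 CPM unstimulated and at 95.3, 128 and 155 CPM at IF 22 h. Of its 3' words, 88.0% also occur in other genes, 105 in number, so its counts are uncertain. Pkm, pyruvate kinase, was at 313 to 389 CPM unstimulated and at 281 to 474 CPM at IF 22 h. Its M1 and M2 isoforms could not be told apart by 3' counts.

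Of the 6 payoff genes, 4 lay above and 1 (Eno1) below all unstimulated values at IF 22 h, against 15.7% and 14.7% of all genes, and the median log2 fold change of the 6 was 0.69. With only the IF 22 h and unstimulated libraries in the fit, 7 of 43 tested genes passed (Aldoa, Eno3, Gapdh, Ldha, Pgam1, Pgk1 and Tpi1), all higher, against 9.93% of all genes in that fit. The same restriction at DC 22 h left 0 of the 44, against 5.13% of all genes.

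**Figure D3:**
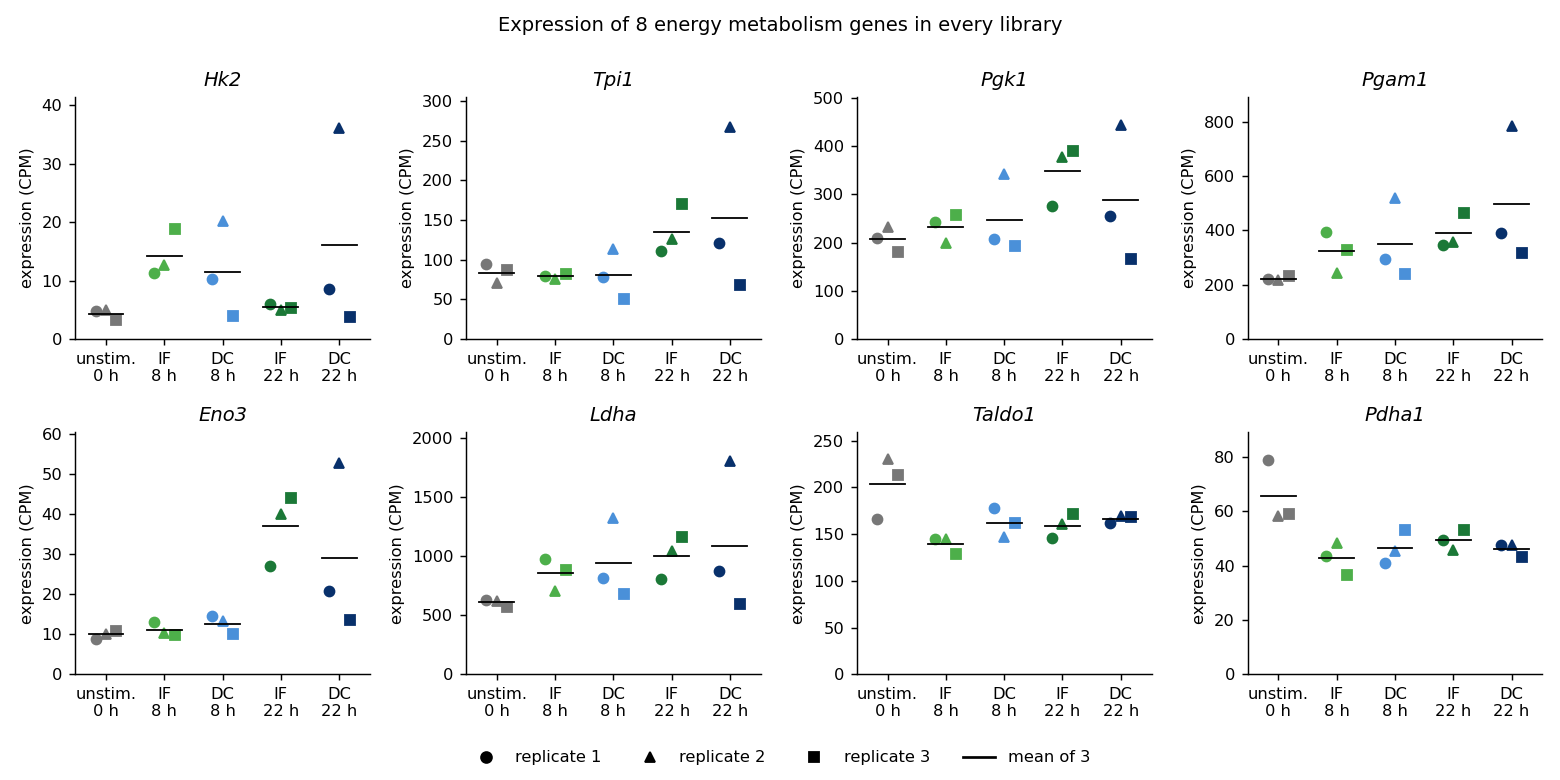
Normalised expression (CPM, y axes from 0) of 8 genes in each of the 15 libraries, by group (x axis), with 1 symbol per replicate number and a line at the mean of 3. At DC 22 h the triangle of replicate 2 is the highest of 3 for Hk2 (36.1 CPM), Tpi1 (267), Pgk1 (443), Pgam1 (783), Eno3 (52.8) and Ldha (1806).

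Ldha, the lactate dehydrogenase subunit that favours lactate formation, was at 632, 625 and 574 CPM in unstimulated cells. At IF 8 h it was at 979.6, 706 and 886 CPM, and at DC 8 h at 820.3, 1326 and 681 CPM. At IF 22 h it was at 808, 1042 and 1161 CPM, and at DC 22 h at 873, 1806 and 595 CPM. All values except DC 22 h replicate 3 lay above all unstimulated values. The log2 fold changes were 0.49 (IF) and 0.63 (DC) at 8 h, then 0.72 (IF) and 0.84 (DC) at 22 h, each with an SE of 0.31, and none passed (adjusted p 0.375, 0.268, 0.202 and 0.119 by edgeR). Without replicate 2 the mean at DC 22 h was 734 CPM instead of 1091. Ldhb, the other main subunit, was at 2.50 to 7.96 CPM, and 98.9% to 99.8% of the counts of both genes were Ldha in every library.

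To show where these genes differ in regulatory sequence, the 250 bases before the start site are given for Ldha, Pgk1, Pgam1 and Eno3. Ldha, Pgk1 and Pgam1 had high values in the same DC libraries. Eno3 passed in more comparisons than any other of these genes, and was also highest in DC 22 h replicate 2 (52.8 CPM). So were Hk2 (36.1 CPM) and Tpi1 (267 CPM), whose sequences are not shown. Whether sequence is linked to the values of that library was not tested. The sequences are from RefSeq, GRCm38.p6. Capitals mark ACGTG or its reverse complement CACGT, the core letters of hypoxia response elements. Where both overlap they spell CACGTG, the E-box letters known for binding of Myc.
Ldha promoter, chr7:46845554-46845803, plus strand: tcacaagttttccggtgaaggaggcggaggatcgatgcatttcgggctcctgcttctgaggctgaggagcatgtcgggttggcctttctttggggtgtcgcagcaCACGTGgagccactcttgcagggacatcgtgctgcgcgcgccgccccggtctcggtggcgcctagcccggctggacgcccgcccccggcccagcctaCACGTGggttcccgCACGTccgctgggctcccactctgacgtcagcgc
Pgk1 promoter, chrX:106186850-106187099, plus strand: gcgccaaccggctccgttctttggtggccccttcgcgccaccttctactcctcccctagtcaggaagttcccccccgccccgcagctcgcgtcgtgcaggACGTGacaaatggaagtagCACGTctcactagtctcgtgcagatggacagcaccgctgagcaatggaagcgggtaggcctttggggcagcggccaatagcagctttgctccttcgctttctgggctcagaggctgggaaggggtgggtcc
Pgam1 promoter, chr19:41911621-41911870, plus strand: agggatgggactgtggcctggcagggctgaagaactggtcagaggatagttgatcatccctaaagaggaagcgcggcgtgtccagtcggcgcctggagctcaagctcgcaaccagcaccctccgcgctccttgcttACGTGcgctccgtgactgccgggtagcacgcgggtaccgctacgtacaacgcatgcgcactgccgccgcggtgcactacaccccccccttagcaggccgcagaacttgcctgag
Eno3 promoter, chr11:70656926-70657175, plus strand: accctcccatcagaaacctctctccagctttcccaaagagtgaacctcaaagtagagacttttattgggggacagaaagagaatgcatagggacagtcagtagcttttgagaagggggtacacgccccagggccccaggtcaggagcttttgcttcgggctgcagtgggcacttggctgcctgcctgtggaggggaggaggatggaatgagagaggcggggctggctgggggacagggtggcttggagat
The Ldha window held CACGTG at 145 and at 48 bases before the start, while the Eno3 window held no ACGTG on either strand. In RefSeq windows from 250 bases before to 50 after the start, ACGTG on either strand was found in 27 of 62 windows of 43 matched genes, or 43.5%, against 19.6% of 32851 windows of all genes. CACGTG was found in 7 of the 62 (11.3%), against 7.15% of all. Base composition was not matched, and a letter match is not evidence of binding.

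The pyruvate dehydrogenase complex turns pyruvate into acetyl-CoA, and Pdk1 is a kinase that switches it off. Pdha1, the catalytic subunit gene at chrX:160122209-160138413, was at 78.8, 58.4 and 58.9 CPM in unstimulated cells and at 43.5, 48.4 and 36.4 CPM at IF 8 h. It fell by 0.61 ± 0.18 (SE) on the log2 scale (adjusted p 0.0482 by edgeR). The other groups were at 41.0 to 53.0 CPM, all below the unstimulated values, and did not pass by edgeR. DESeq2 also called Pdha1 lower at DC 22 h (log2 fold change -0.51, adjusted p 0.0434). Pdha1 shares 603 exonic bases with Map3k15 on the opposite strand, and the use of strand in counting is not given in the sources used here. Pdk1 was at 91.5 to 97.4 CPM unstimulated and lower in all 12 stimulated libraries. Its lowest values, 33.0 and 50.1 CPM, were in DC replicate 2 at 8 h and 22 h, and no comparison passed. Dlat, the acetyltransferase subunit, was at 21.2 to 29.6 CPM unstimulated and at 31.6 to 39.6 CPM at IF 8 h, without passing.

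In the pentose phosphate pathway, Taldo1 (transaldolase, chr7:141392199-141402968) was at 167, 231 and 214 CPM in unstimulated cells and at 145, 145 and 129 CPM at IF 8 h. It fell by 0.55 ± 0.15 (SE) on the log2 scale (adjusted p 0.0395 by edgeR). In the other 3 groups it was at 146 to 178 CPM and overlapped the unstimulated range. Pgls (6-phosphogluconolactonase, chr8:71592176-71601092) was at 88.8, 72.7 and 80.8 CPM unstimulated and at 48.1, 50.5 and 58.1 CPM at DC 22 h. It fell by 0.63 ± 0.18 (adjusted p 0.0459 by edgeR), and 776 of its exonic bases are shared with Fam129c on the same strand. G6pdx, which commits glucose 6-phosphate to the pathway, was at 53.7 to 61.6 CPM unstimulated and at 79.1, 96.3 and 76.2 CPM at DC 8 h. These values did not overlap, with an adjusted p of 0.0833 by edgeR and 0.0374 by DESeq2. The calls of Taldo1, Pdha1 and Pgls were lost in 8 of 14, 9 of 14 and 10 of 15 alternatives, among them any 1 of the 6 libraries left out for Pdha1, all but unstimulated replicate 1 for Taldo1 and all but DC 22 h replicate 3 for Pgls.

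None of the 11 TCA cycle genes passed in any comparison by edgeR, while DESeq2 called Ogdh and Idh3b lower. Their summed level was 1300 to 1383 CPM in unstimulated cells, 1111 to 1217 (IF) and 1154 to 1298 (DC) at 8 h, then 1165 to 1444 (IF) and 1122 to 1423 (DC) at 22 h. The 8 h sums lay below all unstimulated sums and the 22 h sums overlapped them. The separation at 8 h rests on the TMM factors, which were 0.857 to 0.872 in unstimulated libraries and 1.01 to 1.05 at 8 h. Their median log2 fold changes were -0.25 (IF) and -0.18 (DC) at 8 h, then -0.01 (IF) and -0.09 (DC) at 22 h. Ogdh, a subunit of the 2-oxoglutarate dehydrogenase complex, was at 230 to 246 CPM unstimulated and at 172 to 211 CPM in the 12 stimulated libraries, with no overlap. DESeq2 called it lower at IF 8 h, DC 8 h and DC 22 h (adjusted p 0.00844, 0.0110 and 0.00971). Idh3b, a subunit of NAD+ isocitrate dehydrogenase, was at 115 to 120 CPM unstimulated and at 74.3 to 106 CPM after stimulation, again with no overlap, and DESeq2 called it lower at IF 8 h (adjusted p 0.0409). Cs (citrate synthase), Mdh2 (malate dehydrogenase) and Fh1 (fumarase) overlapped the unstimulated range in every group.

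**Figure D4:**
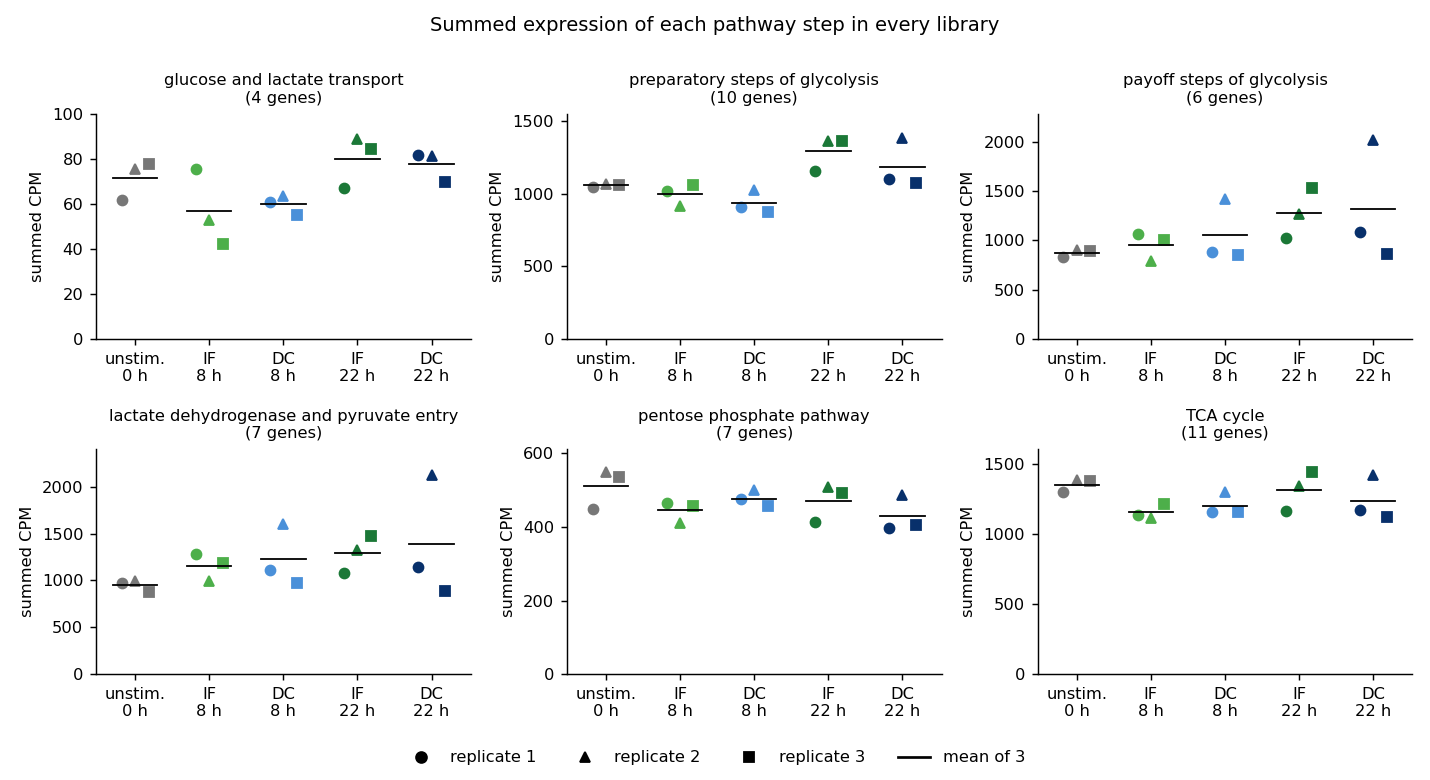
Summed CPM (y axes from 0) of the genes of 6 pathway steps in each library, by group (x axis), with 1 symbol per replicate number and a line at the mean of 3. The payoff sum was 834 to 900 in unstimulated cells, 1025 to 1527 at IF 22 h and 864 to 2016 at DC 22 h, where the highest value is replicate 2.

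Both stimuli were then compared at each time. At 8 h, 0 of 44 genes passed between IF and DC, against 0.665% of all genes, and 0 had an unadjusted p under 0.05, against 8.27% of all genes. DESeq2 also called 0. At 22 h, 0 of 44 passed, against 2.43% of all genes, with 5 (11.4%) at an unadjusted p under 0.05, against 15.3% of all genes, and 0 by DESeq2. The lowest adjusted p at 22 h was that of Hk2, 0.233, with IF at 5.41 and DC at 16.1 CPM on average. Without DC 22 h replicate 2 the DC mean was 6.15 CPM. Without DC 22 h replicate 2, Eno3 and Pfkp were called higher with IF than with DC at 22 h, and without both DC libraries numbered 2 Eno3, Pfkp and Rpia were. Of the 44 genes, 3 lay entirely higher and 2 entirely lower with IF than with DC at 22 h, against 10.7% and 9.11% of all genes. The change of the IF-DC difference from 8 h to 22 h passed for 0 of 44 genes and 0 of 10831 (0% called), with 2 of the 44 (4.55%) at an unadjusted p under 0.05, against 7.92% of all genes, and 0 called by DESeq2.

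From 8 h to 22 h with IF, 37 of 44 genes had a log2 fold change above 0, with a median of 0.20, against 5328 of 10831 genes and a median of -0.01 for all genes. Of the 44, 12 lay entirely above their 8 h values, against 12.1% of all genes, and 1 of 44 lay entirely below, against 9.37%. Eno3 alone passed, against 1.12% of all genes (0.637% higher). With library size alone 4 of the 44 signs changed. Without IF 22 h replicate 1 the median of the members was 0.27, and without the replicates 2 and 3 of low mitochondrial ribosomal RNA, which left 1 library, it was -0.04. Gapdh, Tpi1, Pgk1 and Aldoa had all 22 h values above all 8 h values, and Hk2 had all 22 h values below them (14.2 ± 4.0 against 5.41 ± 0.60 CPM, SD, n = 3). From 8 h to 22 h with DC, 0 of 44 passed, against 0.48% of all genes, with 4 (9.09%) at an unadjusted p under 0.05, against 9.03% of all genes, and 0 by DESeq2. Same-numbered DC libraries deviated together, and with the replicate number as a block and only the DC groups fitted, 0 of 43 passed, against 1.63% of all genes.

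Other genes of these pathways were taken from fixed lists. Of all genes, 6.08% to 7.76% were called in the comparisons with unstimulated cells, so counts near 0 in lists this short say little. Among 14 tested genes of glycolysis and glucose uptake, Slc2a6, a transporter of the GLUT family, had 0 counts in all unstimulated libraries. It was at 2.79 to 4.84 CPM at DC 8 h and 4.31 to 4.79 CPM at DC 22 h, with means of 3.93 and 4.47 CPM. These means were at least 5.63-fold and 6.41-fold higher than the largest unstimulated 3-count limit, 0.698 CPM per library. With IF it was called higher at both times, at 0.119 to 1.08 CPM, with group means below that limit. Slc2a9, a urate and hexose transporter, fell from 14.0 to 3.86 CPM at DC 8 h and to 3.67 at DC 22 h. Gpd2, of the glycerol phosphate shuttle, fell at DC 8 h from 25.1 to 9.83 CPM. None of 8 genes of pyruvate entry passed in any comparison by edgeR. Of 6 pentose phosphate genes, Prps2, which makes phosphoribosyl pyrophosphate, fell at IF 8 h from 112 to 59.1 CPM. Of 20 genes of the TCA cycle and linked enzymes, 1 passed in each stimulated group. Slc25a13, a mitochondrial aspartate-glutamate carrier, rose at IF 22 h and DC 22 h from 5.01 to 14.1 and 14.4 CPM on average, and without DC 22 h replicate 2 the latter mean was 9.05 CPM and the call was lost (adjusted p 0.190 by edgeR). Its paralog Slc25a12 fell at IF 8 h from 109 to 70.6 CPM.

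Of 16 regulators, 2 rose with IF and 1 with DC at 8 h, 1 rose with each stimulus at 22 h, and 0 fell, against 3.04%, 2.75%, 2.63% and 3.41% of all genes higher and 3.44% to 4.72% lower. Hif1a, the oxygen-regulated subunit of HIF-1, was at 38.2, 48.8 and 48.6 CPM unstimulated. At 8 h it was at 99.9, 79.9 and 83.3 CPM with IF and at 73.2, 118 and 85.3 CPM with DC. At 22 h the IF libraries were at 58.0, 76.8 and 72.4 CPM and the DC libraries at 69.5, 89.7 and 95.8 CPM. All 12 stimulated values lay above the unstimulated ones. It rose by 0.96, 1.03 and 0.91 on the log2 scale at IF 8 h, DC 8 h and DC 22 h (adjusted p 0.0104, 0.00570 and 0.0117 by edgeR), and its value of 0.61 at IF 22 h did not pass (adjusted p 0.0918).

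Irf4, a transcription factor induced by T cell receptor signals, rose at IF 8 h from 11.9 to 131 CPM on average (log2 fold change 3.47 ± 0.77, SE, adjusted p 0.0115 by edgeR). At IF 22 h it was at 39.8, 52.1 and 61.2 CPM. With DC it was at 41.8, 128 and 27.6 CPM at 8 h and at 6.37, 57.5 and 4.19 CPM at 22 h. Mlxip, a glucose-sensing partner of Mlx, rose at IF 22 h from 18.8 to 38.3 CPM on average (adjusted p 0.0352 by edgeR). Myc was at 33.8 to 40.3 CPM unstimulated, at 80.3, 47.4 and 49.8 CPM at IF 8 h and at 34.2, 53.7 and 60.2 CPM at IF 22 h. In the DC libraries Myc was at 50.1, 110 and 38.2 CPM at 8 h and at 31.2, 101 and 34.4 CPM at 22 h. It did not pass in any group by edgeR. Txnip, which restrains glucose uptake, was at 609 to 760 CPM unstimulated, and at 369 and 288 CPM in DC replicate 2 at 8 h and 22 h. It was at 545 to 718 CPM in the other DC libraries, at 459 to 646 CPM at IF 8 h and at 548 to 593 CPM at IF 22 h. DC replicate 2 thus had the highest Myc and Irf4 and the lowest Txnip of its group at both times.

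Dendritic cell transcripts were measured beside these values. The summed level of that marker list, 16 of 19 genes tested, was 1046 to 1910 CPM in unstimulated cells, 637 to 826 (IF) and 1443 to 1625 (DC) at 8 h, then 652 to 939 (IF) and 971 to 1216 (DC) at 22 h. Of the 16 tested markers, 1 rose and 5 fell with IF at 8 h, 2 rose and 1 fell with DC at 8 h, 2 rose and 4 fell with IF at 22 h, and 2 rose and 6 fell with DC at 22 h. Xcr1, a receptor of cross-presenting dendritic cells, was at 9.54 to 45.6 CPM unstimulated and at 0.111 to 0.256 CPM at DC 22 h. Fscn1, a marker of mature dendritic cells, was at 0, 0.181 and 6.75 CPM unstimulated, at 126 to 168 CPM at DC 8 h, 72.9 to 94.8 at DC 22 h, 5.83 to 43.8 at IF 22 h and at most 0.663 at IF 8 h, so it was not confined to the DC groups. In DC replicate 2 Fscn1 lay between the other values at both times (132 and 87.6 CPM). Irf8, which is in the same list, was highest there (262 and 519 CPM) and made up 519 of the 1216 CPM that was the highest sum at DC 22 h. It was also at 74.9 to 174 CPM at IF 8 h, against 29.8 to 37.2 CPM unstimulated, so it was not particular to wells with dendritic cells. Ccl17, Zbtb46 and Clec9a were at no more than 2.65 CPM in any library. Whether dendritic cell RNA contributed to the values of the DC groups was not tested.

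Of 11 hypoxia-inducible genes outside glycolysis, 0 rose in any stimulated group by edgeR, against 2.63% to 3.41% of all genes. Ddit4, an inhibitor of mTOR signalling, fell at IF 8 h from 30.5 to 14.6 CPM (adjusted p 0.0239 by edgeR) and at DC 22 h to 16.1 CPM (adjusted p 0.0412). Of the 19 calls of genes outside the 46, those of Hif1a at DC 8 h and of Slc2a6 in both DC groups held in every alternative run for them. The Hif1a call at IF 8 h was lost without unstimulated replicate 1 or IF 8 h replicate 1, that at DC 22 h without unstimulated replicate 1, and the Irf4 call without unstimulated replicate 1 or 2. The other calls were each lost in at least 5 alternatives that included single libraries left out.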

How the data were processed

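Gene expression was measured by an adapted CEL-seq protocol, which counts 3' transcript ends, per the labels' protocols. The authors deposited 1 table of raw counts per library. BWA and mm10 are named in the submitters' processing notes; the counting program, annotation, strand and use of molecular identifiers are not given in the sources used here.

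Counts were analysed with edgeR 4.0.16 in R 4.3.3: filterByExpr (minimum count 10, minimum total 15), TMM, 1 quasi-likelihood fit of 5 group means over 15 libraries and Benjamini-Hochberg adjustment over 10831 genes per comparison, threshold 0.05, two-sided. Fold changes use a prior count of 0.125. Exact binomial intervals (Clopper-Pearson, 95%) and 3-count limits cover counting error only. Genes were placed, and shared 3' words and exons counted, with GENCODE vM21. The fit was tested on simulated data. Alternatives were other scalings and filters, DESeq2 1.42.0, only the groups compared, the replicate number as a block, no mitochondrial rows and libraries left out. All members could be named, with every library's value for those past the threshold and their families; of other listed genes, up to 3 past the threshold, and Myc, Hif1a and Txnip. Members and lists were chosen with earlier results of these data known. Same-numbered libraries deviated together most strongly between DC 8 h and DC 22 h (r 0.12 to 0.40 in 3 of 3 pairs). In no other pair of groups did every correlation exceed 0.1 (range -0.19 to 0.12). Between unstimulated cells and DC 8 h the same number correlated best in 6 of 6 choices, but weakly (r 0.025 to 0.067). The main fit paired no libraries, and a block within the DC groups alone was run as an alternative.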

Additional observations from a re-analysis of the deposited data

How the results depend on the processing

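No member changed direction where it was called, in any alternative run, and of 103 such fits 45 lost the call. Of 269 fits for other listed genes, added after seeing the data, 90 lost it and 0 changed direction. DESeq2 size factors and leaving out mitochondrial rows changed no count by over 1.5 times. The counts of members that follow are given without the share of all genes called in the same fit. That share also moves with the setting, so the counts do not compare members with other genes. With library size alone, 0 (IF) and 1 (DC) members passed at 8 h, 3 (IF) and 8 (DC) at 22 h, and 5 in the test over 5 groups. Without a low-count filter, 3 passed with DC at 8 h, 6 (IF) and 7 (DC) at 22 h, 9 over 5 groups, 1 between IF and DC at 22 h, 5 from IF 8 h to 22 h and 2 from DC 8 h to 22 h. At IF 8 h Hk2 was then called higher and Pfkm and Aldoc lower, and Pdha1 and Taldo1 were not called. A mean of at least 10 CPM gave 2 over 5 groups. DESeq2 called 7, 4, 3 and 6 against unstimulated cells in the same order, 8 over 5 groups and 2 from IF 8 h to 22 h. With only the groups compared, 5, 1, 7 and 0 passed in that order. At IF 8 h these were Hk2, Ldha and Pgam1 (higher) and Pdha1 and Taldo1 (lower), and at DC 8 h Pfkm (lower). Without the IF 22 h libraries of low mitochondrial rRNA, 0 passed at IF 22 h and 0 from IF 8 h to 22 h; 1 library then remained in that group, its spread was taken from the other groups, and the loss of calls says little about stability. Without both DC libraries numbered 2, an alternative chosen after seeing the data, 1 passed at DC 8 h and 3 between IF and DC at 22 h. Leaving out 1 library gave 0 to 1 at IF 8 h, 0 to 7 at DC 22 h (0 without any 1 unstimulated library, 7 without DC 22 h replicate 3), 0 to 2 between IF and DC at 22 h and from IF 8 h to 22 h, 0 to 1 from DC 8 h to 22 h and 1 to 4 over 5 groups. With the replicate number as a block, 0 passed at IF 8 h (Pdha1 and Taldo1 lost) and Pgls was lost at DC 22 h. The same number gave the best correlation in 21 of 60 choices over all groups. It did so in 5 of 6 between DC 8 h and DC 22 h, and in 6 of 6 between unstimulated cells and DC 8 h. The block changed no other count of members by over 1.5 times, including 0 from DC 8 h to 22 h with only the DC groups fitted, an alternative chosen after seeing the data. The causes of these differences were not tested. At the lowest depth, 3 counts were 0.995 CPM, so Eno1, Aldoc and Slc16a3 are limited by counting.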
